A study of Mus musculus with 6 samples.

Results

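Chromatin accessibility was described around 8 of the 21887 coding genes of the mouse annotation, the Krüppel-like factor genes Klf2, Klf3, Klf4, Klf5, Klf6, Klf7, Klf9 and Klf15, which are known for holding back or driving fat cell formation. The genes were picked by name and not by a measured value, but with earlier results of these data known. An ATAC-seq peak was given to one of them when its summit lay inside the gene on the mm10 build, or when that gene had the nearest coding gene end within 100 kb. Peaks of the 6 libraries that shared at least 1 bp were merged, and 54 of the resulting 68913 regions belonged to these genes. The cells were mouse brown pre-adipocytes, the committed precursors of heat-producing brown fat, of a line that the labels call BAT. By the labels, 3 libraries were made at day 1 of brown adipocyte differentiation and 3 at day 0, and the day 0 cells are named WT. The title of the series concerns RUNX1 and RUNX2, and no sample with a deletion was analysed here. The labels name neither the inducing agents, nor whether the line is 1 clone, nor whether replicates were separate cultures, and each p-value therefore speaks of the spread of these 6 libraries, which may be technical. In such bulk material, fewer cells with an open site and less opening per cell cannot be told apart.

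Krüppel-like factors are zinc finger proteins that bind GC-rich sites and CACCC boxes in DNA, and several of them act in sequence on the Pparg and C/EBP genes, the master regulators of fat cells. In mouse 3T3-L1 pre-adipocytes Klf2 represses Pparg, Klf4 works with Egr2 to activate Cebpb at the onset of differentiation, and Klf5 acts downstream of C/EBP proteins to activate Pparg. Klf3 recruits the co-repressor CtBP and represses Cebpa, Klf6 represses Dlk1, a gene that keeps cells in the precursor state, and KLF7 holds back differentiation of human pre-adipocytes. Klf9 and Klf15 promote later steps, Klf15 also activates the glucose transporter gene Slc2a4, and both genes are known to respond to glucocorticoids.

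RefSeq promoter windows of the GRCm38.p6 build, which run from 250 bases before to 50 bases after a gene's start, were found for 7 of the 8 genes. The 250 bases before the start are printed 5′ to 3′ on the gene's own strand for Klf3, Klf4, Klf9 and Klf15, because their starts ranged from no peak in any library at Klf15, through some libraries at Klf4, to every library at Klf3 and Klf9. Capitals mark CACCC, or GGGTG on the other strand, and GGCGGG, or CCCGCC on the other strand. Where neighbouring motifs overlap, the capitals run together. The Klf3 stretch is chr5:64803271-64803520 on the plus strand.
Klf3: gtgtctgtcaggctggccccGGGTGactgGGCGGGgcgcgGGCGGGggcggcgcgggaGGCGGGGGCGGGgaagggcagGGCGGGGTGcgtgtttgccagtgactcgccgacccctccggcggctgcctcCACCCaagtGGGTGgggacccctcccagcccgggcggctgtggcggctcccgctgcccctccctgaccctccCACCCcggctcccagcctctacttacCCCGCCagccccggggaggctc
The Klf4 stretch is chr4:55532476-55532725 on the minus strand.
Klf4: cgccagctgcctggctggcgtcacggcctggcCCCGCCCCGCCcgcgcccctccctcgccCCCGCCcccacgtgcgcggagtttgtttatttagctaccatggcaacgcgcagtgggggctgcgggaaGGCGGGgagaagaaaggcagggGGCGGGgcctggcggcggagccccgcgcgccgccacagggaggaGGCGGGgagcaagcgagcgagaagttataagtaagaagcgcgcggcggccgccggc
The Klf9 stretch is chr19:23140976-23141225 on the plus strand.
Klf9: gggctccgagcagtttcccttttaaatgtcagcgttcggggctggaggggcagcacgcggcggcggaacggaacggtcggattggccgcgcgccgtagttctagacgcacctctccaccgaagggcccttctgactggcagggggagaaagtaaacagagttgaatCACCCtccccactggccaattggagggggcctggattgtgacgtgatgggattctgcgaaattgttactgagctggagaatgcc
The Klf15 stretch is chr6:90462326-90462575 on the plus strand.
Klf15: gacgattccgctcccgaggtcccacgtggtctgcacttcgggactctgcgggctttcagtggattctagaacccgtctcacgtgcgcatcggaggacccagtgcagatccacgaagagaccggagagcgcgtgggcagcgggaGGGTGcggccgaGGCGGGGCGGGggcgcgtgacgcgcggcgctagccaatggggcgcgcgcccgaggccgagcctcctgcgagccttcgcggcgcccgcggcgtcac

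The Klf3 window held 5 CACCC and 6 GGCGGG motifs, and the Klf4 window held 0 CACCC and 6 GGCGGG motifs. The Klf9 window held 1 CACCC motif and 0 GGCGGG motifs, and the Klf15 window held 1 CACCC and 2 GGCGGG motifs. Of 32851 promoter windows of the same length, 57.5% held CACCC, 35.3% held GGCGGG and 23.7% held both, so both motifs are common in such windows. A peak overlapped the window in 3 of 3 day 1 and 3 of 3 day 0 libraries for Klf2, Klf3, Klf6, Klf7 and Klf9. The Klf4 window was overlapped in 2 of 3 day 1 and 3 of 3 day 0 libraries. The Klf15 window was overlapped in 0 of 3 day 1 and 0 of 3 day 0 libraries, although 73.3% of its bases are G or C, against 74.3% for Klf4. The motif matches describe letters only and are not binding sites.

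The libraries differed in depth and in the number of peaks, and this touches every count that follows. The 3 day 1 libraries held 4919755 to 7302457 fragments and 12556 to 23274 peaks on the main chromosomes, and the 3 day 0 libraries held 8127635 to 11011889 fragments and 39211 to 55511 peaks. Day 1 replicate 3 stood apart, with the most fragments of its day and the fewest peaks, so calls at the named regions that change without it are given beside the values. Counts are given in the deposited lists and in equal lists, which keep the 12556 peaks of each library with the highest −log10 q. This length is the whole list of day 1 replicate 3, so every peak called there, also a weak one, is among its 12556 strongest. Without that library, lists of 20069 peaks were also drawn. They hold the whole list of day 1 replicate 1, to which the same applies. The cells were checked by peaks near marker genes. The 6 pre-adipocyte markers held 6 to 18 peaks in day 1 libraries and 28 to 40 in day 0 libraries, and gene-end peaks were present at Pdgfrb, Ly6a and Ebf2 in 3 of 3 day 0 libraries but absent at Pdgfra, Cd34 and Dlk1 in all 6 libraries. The 5 mature adipocyte markers held 4 to 6 peaks in day 1 libraries and 6 to 10 in day 0 libraries, with no peak at Ucp1 in any. Their equal lists ran the other way, with 3 to 4 peaks at day 1 and 2 at day 0, and Fabp4 had 2, 1 and 2 at day 1 and 0 in each day 0 list. The 4 endothelial markers held 0 to 5 peaks in day 1 libraries and 10 to 13 in day 0 libraries, the 4 immune markers 0 to 2 in day 1 libraries and 4 to 7 in day 0 libraries, and the 3 muscle markers 0 in day 1 libraries and 0 to 3 in day 0 libraries. Gene-end peaks in 3 of 3 day 0 libraries were also present at the mature marker Fabp4, the endothelial marker Kdr and the immune marker Cd68, so they were not particular to pre-adipocyte markers. By equal lists the pre-adipocyte markers held 6 to 9 peaks at day 1 and 4 to 7 at day 0, the endothelial markers 0 to 2 at day 1 and 3 to 4 at day 0, the immune markers 0 to 1 at day 1 and 0 at day 0, and the muscle markers 0 in all 6 libraries. The part of other cells in the results was not tested.

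Fewer peaks were called around these genes at day 1 than at day 0, in about the proportion in which all peaks were fewer. The deposited lists held 24, 21 and 15 peaks of the 8 genes in day 1 libraries, against 51, 38 and 44 in day 0 libraries. Per 10000 peaks of the library, these are 11 ± 1.7 at day 1 and 9.8 ± 1.2 at day 0 (SD, n = 3 each), and the ranges overlap. The equal lists gave the 8 genes 15 peaks in each day 1 library, against 12, 11 and 14 at day 0, a difference of 2.67 peaks. Counts for single genes were called different where the 3 values of one day did not overlap with the 3 values of the other, which corresponds to p = 0.10 in an exact two-sided permutation test, the smallest that 3 against 3 libraries can give. In the deposited lists, 3 of the 8 genes (37.5%) had fewer peaks in every day 1 library than in any day 0 library, against 33.6% of the 15799 coding genes with a peak. None of the 8 had more, against 0.177% of coding genes. In the equal lists, 2 of the 8 (25.0%) had more peaks in every day 1 library, against 6.53% of 12066 genes, and none had fewer, against 6.67%. No adjusted p of any of the 8 genes reached 0.05 in either kind of list, since the design does not allow it.

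**Figure D1:**
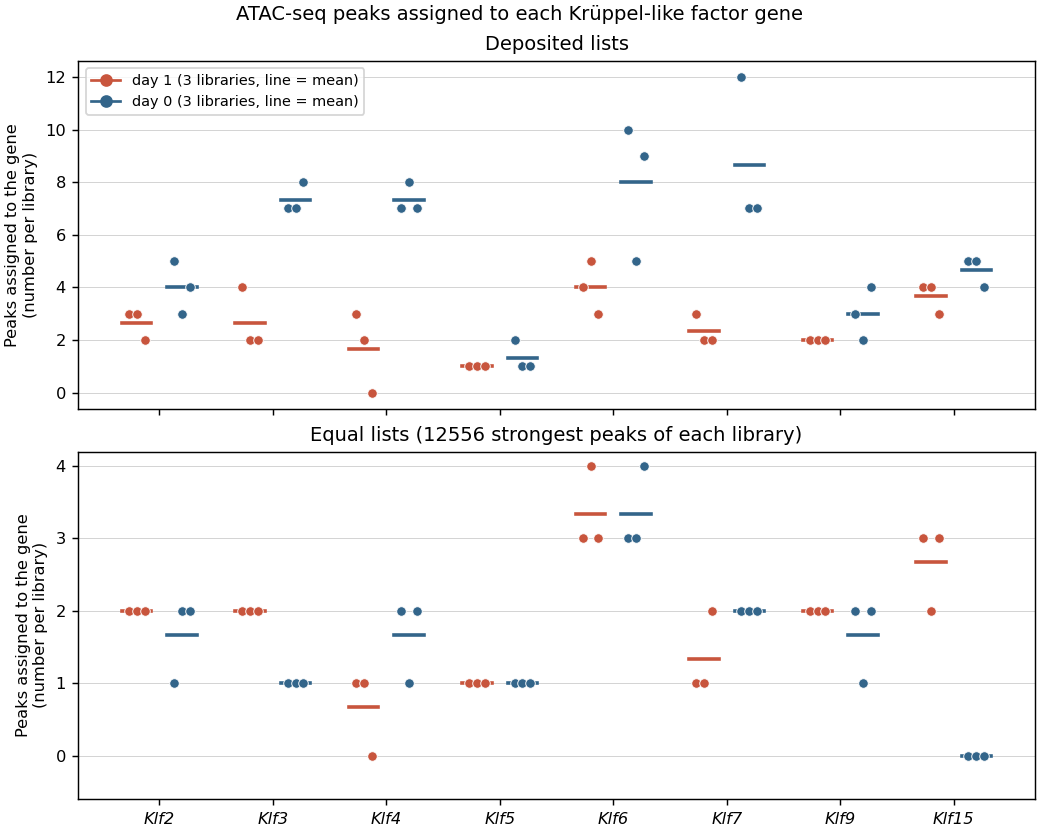
Number of peaks given to each of the 8 genes in each library, with day 1 (red) left of day 0 (blue) and lines at the means of 3 libraries, in the deposited lists (top) and in the 12556 strongest peaks of each library (bottom). Klf3, Klf4 and Klf7 separate by day in the deposited lists, with fewer peaks at day 1, and Klf3 and Klf15 separate in the equal lists, with more peaks at day 1.

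Of the 54 regions, 15 lay inside one of the genes and 9 held a summit within 1 kb of a gene end. Regions called in all 6 libraries numbered 12 (22.2%, against 13.3% of all regions). Regions called in 3 of 3 day 0 and 0 of 3 day 1 libraries numbered 9 (16.7%, against 17.5% of all regions), and the reverse pattern was found in 0 of the 54, against 0.607% of all regions. A further 33 regions (61.1%, against 47293 of all 68913 regions) had other patterns, with peaks on 1 day or on both. Of the 54, 12 were called in a single library, for which no share over all regions was counted. The genes' regions at gene ends were called in all 6 libraries in 6 of 9 cases (66.7%, against 43.4% of all gene-end regions), and those away from gene ends in 6 of 45 (13.3%, against 6.30%). All 9 regions called only at day 0 lay away from gene ends, as did 93.6% of the 12066 such regions in all. A gene-end peak in all 6 deposited lists was found at 6 of the 8 genes, all but Klf4 and Klf15, against 29.3% of coding genes, and in all 6 equal lists at 5 of the 8, Klf3 being the further exception, against 19.4%. None of the 8 had a gene-end peak in 3 of 3 deposited lists of a single day and none of the other, a pattern found at 0.0411% of coding genes for day 1 and 2.33% for day 0. In the equal lists the 8 genes had 22 regions, of which 3 were called only in the day 1 libraries (13.6%, against 5.71% of 23438 regions), 2 only in the day 0 libraries (9.09%, against 9.11%) and 7 in all 6 libraries (31.8%, against 22.8%). With so few regions, a difference of 1 or 2 from these shares is not a result about the genes.

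**Figure D2:**
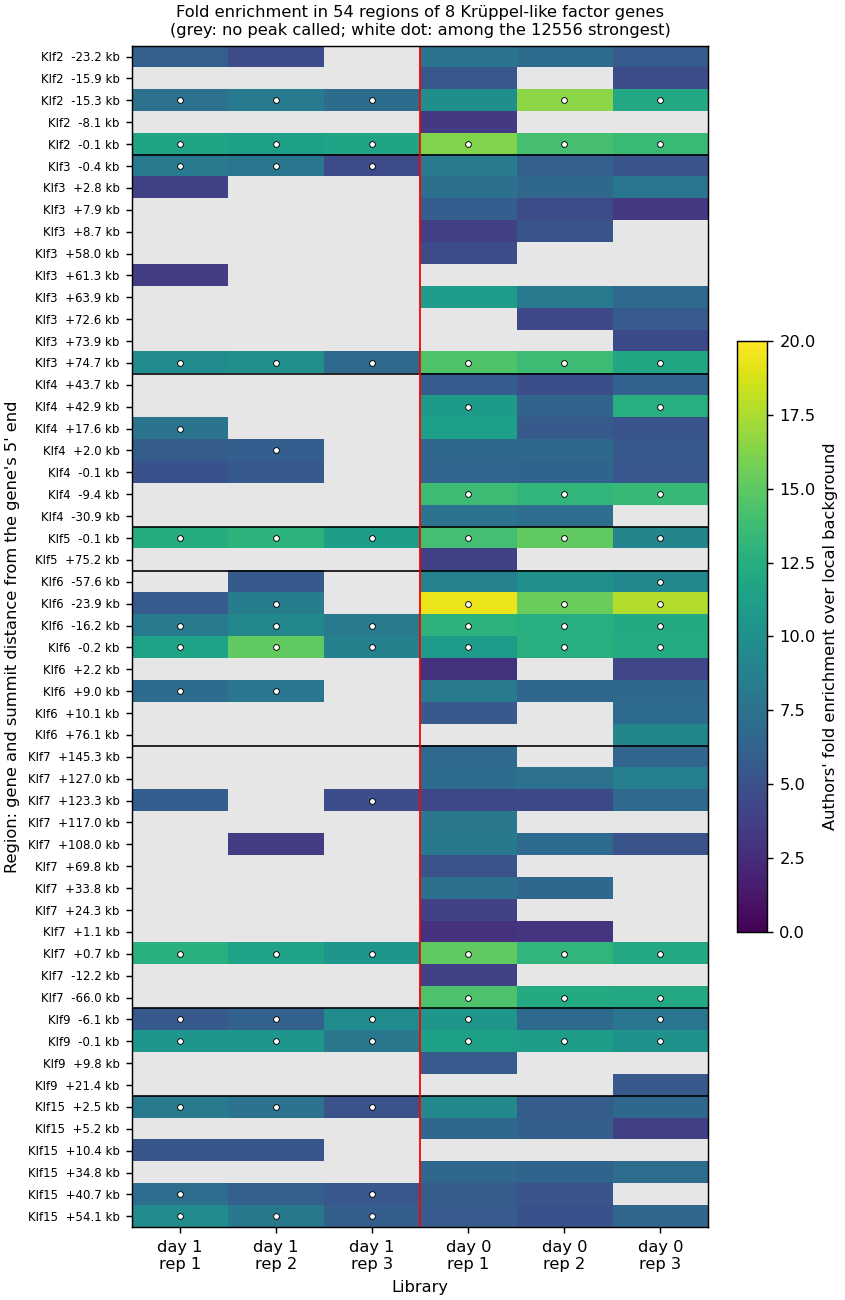
The authors' fold enrichment over local background in the 54 regions (rows, named by gene and by the distance of the summit from the gene's 5′ end, for Klf5 from its lower-coordinate end) in the 3 day 1 libraries (left of the red line) and the 3 day 0 libraries (right). Grey cells have no called peak and white dots mark peaks among the 12556 strongest; the 29 rows without a day 1 peak and the steady rows at the starts of Klf2, Klf5, Klf6, Klf7 and Klf9 can be seen.

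Klf2, a repressor of Pparg in pre-adipocytes, had an open start on both days and little else that separated them. Klf2 (chr8:72319062-72321654) had 3, 3 and 2 peaks in day 1 libraries, against 5, 3 and 4 in day 0 libraries, which overlap unless day 0 replicate 2 is left out (difference then −1.83). Its equal lists held 2, 2 and 2 peaks at day 1 and 1, 2 and 2 at day 0. The region over its start, chr8:72318655-72319280, had summit pileups, the number of fragments over the summit, of 32, 35 and 32 in day 1 libraries and 86, 64 and 42 in day 0 libraries. Pileups follow the depth of a library, so regions were compared by their percentile rank by pileup among the 9136 regions called in all 6 libraries, where 100 is the most open. By this rank the Klf2 start stood at 88.0 ± 6.6 at day 1 and 90.1 ± 3.45 at day 0 (SD, n = 3 each), and the ranges overlap. The upstream region chr8:72303583-72303962, 15.3 kb before the start, had pileups of 11, 13 and 11 in day 1 libraries and 27, 43 and 26 in day 0 libraries. Its rank was 16.0, 14.8 and 32.3 at day 1, against 18.9, 70.9 and 54.8 at day 0, so a single day 0 library reaches into the day 1 range (exact permutation test, p = 0.20, adjusted p = 0.480). The ranks of this region no longer overlap without day 1 replicate 3 or without day 0 replicate 1, and are then lower at day 1.

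Klf3, the CtBP-recruiting repressor of Cebpa, had fewer called regions within and behind the gene at day 1, while its start stood in the equal lists at day 1 only. Klf3 (chr5:64803521-64832901) had 4, 2 and 2 peaks in day 1 libraries, against 7, 7 and 8 in day 0 libraries, a difference of −4.67 (exact permutation test, p = 0.10, adjusted p = 0.296). In the equal lists the direction was the other one, with 2 peaks in each day 1 library and 1 in each day 0 library (exact p = 0.10, adjusted p = 0.757). The peak that made this difference lies over the Klf3 start, chr5:64802858-64803681, which overlaps the promoter stretch printed above and also lies inside the annotated gene Gm38457. Its pileup was 21, 25 and 9 in day 1 libraries and 32, 19 and 12 in day 0 libraries, and it stood among the 12556 strongest peaks in 3 of 3 day 1 and 0 of 3 day 0 libraries. Among shared regions it ranked at 62.5, 60.2 and 17.3 at day 1 and at 28.7, 16.3 and 9.01 at day 0, so day 1 replicate 3 falls within the day 0 range. Without it, or without day 0 replicate 1, every day 1 rank is higher. Genes with a peak at either end in all day 1 and no day 0 equal list made up 1.84% of coding genes, and the reverse 0.265%. The higher equal-list count of Klf3 was lost when peaks were ordered by fold enrichment (difference 0.667, exact p = 0.40), in lists of 6278 peaks (0.667, exact p = 0.40) and, without day 1 replicate 3, in lists of 20069 peaks (0, exact p = 1.00).

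The strongest Klf3 region lay far behind the gene. The region chr5:64877905-64878578, 45.4 kb past the nearer end of Klf3, had pileups of 20, 23 and 12 in day 1 libraries and 82, 62 and 39 in day 0 libraries. It ranked at 58.8, 53.8 and 40.0 among shared regions at day 1, against 91.6, 89.7 and 82.6 at day 0, and every day 1 rank lies below every day 0 rank. This difference of −37.1 percentile points had p = 0.10 in the exact permutation test and an adjusted p of 0.343 over the 9136 regions, of which 14.4% were lower in every day 1 library. A pair of other Klf3 regions was called only at day 0. The region inside the gene, chr5:64811274-64811891, had pileups of 16, 12 and 6 in day 0 libraries, and the region 34.5 kb behind it, chr5:64866605-64867532, had 27, 19 and 13. Scaled to the day 1 fragment totals, their mean day 0 pileups correspond to 5.88 to 8.73 and to 10.2 to 15.1 fragments.

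Klf7, a repressor of differentiation in human pre-adipocytes, had a strongly open start on both days and fewer called peaks at day 1. Klf7 (chr1:64029448-64122345) had 3, 2 and 2 peaks in day 1 libraries, against 12, 7 and 7 in day 0 libraries, a difference of −6.33 (exact permutation test, p = 0.10, adjusted p = 0.296). Its equal lists held 1, 1 and 2 peaks at day 1, against 2, 2 and 2 at day 0, which overlap (exact p = 0.40). Without day 1 replicate 3 they do not, and the equal-list difference is −1.0. When only peaks inside a gene or within 1 kb of its ends were counted, the difference was −2.0 and the ranges overlapped (exact p = 0.20). The region over its start, chr1:64121556-64122426, had pileups of 38, 38 and 25 in day 1 libraries and 100, 73 and 44 in day 0 libraries. Its rank was 89.0 ± 3.31 at day 1 and 93.0 ± 4.22 at day 0 (SD, n = 3 each), and these ranges overlap unless day 0 replicate 3 is left out, when day 1 is lower. Of the 12 Klf7 regions, 4 were called in a single library, for which no share over all regions was counted, and 9 had no peak in any day 1 library, against 59.0% of all regions. The strongest of them, chr1:64188019-64188471, lies 66.0 kb before the gene and had pileups of 32, 25 and 23 in day 0 libraries, where it was among the 12556 strongest peaks in 3 of 3. Scaled to the fragment totals of the day 1 libraries, its mean day 0 pileup corresponds to 13.9, 15.9 and 20.7 fragments. The lowest pileup of any called day 1 peak was 4 to 5 fragments, and the median was 12 in each day 1 library. The part of depth in its absence at day 1 was not tested. The region chr1:63994996-63995452, 34.1 kb behind the gene, was also called only at day 0, with pileups of 18, 16 and 17.

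Klf4, the early activator that acts with Egr2 on Cebpb, was the only 1 of the 8 genes without a peak in one of the libraries, day 1 replicate 3. Klf4 (chr4:55527137-55532475) had 3, 2 and 0 peaks in day 1 libraries, against 7, 8 and 7 in day 0 libraries, a difference of −5.67 (exact permutation test, p = 0.10, adjusted p = 0.296). Its equal lists held 1, 1 and 0 peaks at day 1, against 2, 1 and 2 at day 0, which overlap (exact p = 0.30) unless day 0 replicate 2 is left out (difference then −1.33). Counting only peaks inside the gene or within 1 kb of it, the deposited difference was −1.33 and the ranges overlapped (exact p = 0.30). The region over the Klf4 start, chr4:55532494-55533097, which covers part of the printed promoter stretch, had pileups of 9 and 14 in day 1 replicates 1 and 2 and no peak in replicate 3, against 26, 19 and 12 in day 0 libraries. It was among the 12556 strongest peaks in none of the 6 libraries. Without day 1 replicate 3 and in lists of 20069 peaks, its part chr4:55532501-55532744 was called only at day 1. Those lists keep every peak of day 1 replicate 1. Without day 0 replicate 1, another part of the region, chr4:55532951-55533092, was called only at day 0 in the deposited lists. The region inside the gene, chr4:55530267-55530582, had pileups of 11 and 15 in the same day 1 libraries and none in replicate 3, against 28, 21 and 13 at day 0. The region 12.2 kb behind the gene, chr4:55514699-55515164, had a pileup of 10 in day 1 replicate 1 only, against 20, 8 and 7 in day 0 libraries.

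The strongest Klf4 region was called at day 0 and not at day 1. The region chr4:55541538-55541981, 9.40 kb before the start, had no peak in any day 1 library and pileups of 25, 21 and 22 in day 0 libraries. It was among the 12556 strongest peaks in 3 of 3 day 0 libraries, and its fold enrichment over local background in the authors' lists was 13.4 ± 0.229 (SD, n = 3). Scaled to the day 1 fragment totals, its mean day 0 pileup corresponds to 11.9, 13.6 and 17.7 fragments. Called day 1 peaks had pileups of at least 4 to 5, with a median of 12 in each day 1 library. The part of depth in its absence at day 1 was not tested. A pair of regions behind the gene was also called in 3 of 3 day 0 and 0 of 3 day 1 libraries. These were chr4:55489382-55489641, with day 0 pileups of 28, 11 and 23, and chr4:55488637-55488908, with day 0 pileups of 14, 8 and 11. At the day 1 fragment totals these correspond to 10.5 to 15.6 and to 5.67 to 8.41 fragments. Leaving out any 1 library left every Klf4 day 1 count in the deposited lists below every day 0 count, as it must, since the other counts do not change.

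Klf5, the activator of Pparg downstream of C/EBP proteins, was open in every library at 1 place, the lower-coordinate end of the gene, which is taken here as its start because the tables used give no strand for Klf5. Klf5 (chr14:99298691-99313412) had 1, 1 and 1 peaks in day 1 libraries, against 2, 1 and 1 in day 0 libraries, and 1 peak in each of the 6 equal lists. The region over this end, chr14:99298249-99298999, had pileups of 26, 33 and 22 in day 1 libraries and 42, 42 and 17 in day 0 libraries. By rank among shared regions it stood at 76.5, 79.0 and 83.7 at day 1, against 49.1, 69.4 and 24.9 at day 0, and every day 1 rank lies above every day 0 rank. The difference of 31.9 percentile points had p = 0.10 in the exact permutation test and an adjusted p of 0.343, and 14.7% of the 9136 regions were higher in every day 1 library. Among shared regions at gene ends this share was 13.0%. The ranks did not overlap when any 1 library was left out, which could change only through the redrawn set of shared regions. Per 1000000 fragments its pileup was 5.28, 5.89 and 3.01 in day 1 libraries and 3.81, 5.17 and 1.86 in day 0 libraries, which overlap. The only other Klf5 region, chr14:99373660-99373912, was called in day 0 replicate 1 alone, with a pileup of 6.

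Klf6, the repressor of Dlk1, had an open start that ranked higher at day 1, and upstream regions whose ranks overlapped between the days or that lacked a peak in day 1 replicate 3. Klf6 (chr13:5861489-5870393) had 4, 5 and 3 peaks in day 1 libraries, against 10, 5 and 9 in day 0 libraries, and these overlap (exact permutation test, p = 0.20, adjusted p = 0.510). They do not overlap without day 1 replicate 2 (difference −4.50) or without day 0 replicate 2 (−5.50). Its equal-list counts of 3, 4 and 3 at day 1 and 3, 3 and 4 at day 0 overlap as well. The region over its start, chr13:5860839-5861606, had pileups of 30, 49 and 21 in day 1 libraries and 56, 49 and 37 in day 0 libraries. Its rank was 83.6, 93.8 and 81.6 at day 1 and 71.8, 79.1 and 79.6 at day 0, which do not overlap, with a difference of 9.53 (exact p = 0.10, adjusted p = 0.343). Its pileup per 1000000 fragments was 6.10, 8.74 and 2.88 in day 1 libraries and 5.09, 6.03 and 4.04 in day 0 libraries, which overlap. The region over the other end of the gene, chr13:5869931-5870935, had pileups of 13 and 17 in day 1 replicates 1 and 2 and no peak in replicate 3, against 37, 22 and 18 in day 0 libraries. Without day 1 replicate 3 its part chr13:5869931-5870572 is called only at day 1 in the equal lists. Without day 1 replicate 2 its part chr13:5870408-5870935 is called only at day 0 in the deposited lists.

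The upstream Klf6 regions included the highest fold enrichment of the 54. The region chr13:5837202-5837798, 23.9 kb before the start, had pileups of 7 and 11 in day 1 replicates 1 and 2 and no peak in replicate 3, against 70, 42 and 39 in day 0 libraries. Its fold enrichment in the authors' lists was 5.79 and 8.38 in these day 1 libraries and 17.5 ± 2.01 at day 0 (SD, n = 3). Without day 1 replicate 3 it enters the regions called in every library, and its rank is then lower in both remaining day 1 libraries than in any day 0 library. The region chr13:5845122-5845900, 16.2 kb before the start, was called in all 6 libraries, with pileups of 13, 15 and 14 at day 1 and 40, 37 and 26 at day 0. Its rank was 26.0, 22.1 and 53.7 at day 1 and 45.3, 60.2 and 54.8 at day 0, which overlap (exact p = 0.20, adjusted p = 0.480). Without day 1 replicate 3, or without day 0 replicate 1, every day 1 rank is lower.

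Klf9, which activates Pparg and responds to glucocorticoids, was open at its start and at an upstream region in all 6 libraries. Klf9 (chr19:23141226-23168129) had 2, 2 and 2 peaks in day 1 libraries, against 3, 2 and 4 in day 0 libraries (exact permutation test, p = 0.40), which overlap unless day 0 replicate 2 is left out (difference then −1.50). Its equal lists held 2, 2 and 2 peaks at day 1 and 2, 1 and 2 at day 0. The region over its start, chr19:23140671-23141452, had pileups of 39, 46 and 24 in day 1 libraries and 71, 63 and 38 in day 0 libraries. It ranked at 90.9 ± 3.12 at day 1 and 85.8 ± 4.66 at day 0 (SD, n = 3 each), and the ranges overlap (exact p = 0.20), but not without day 1 replicate 3 or day 0 replicate 2, when day 1 is higher. The upstream region, chr19:23134716-23136214, 6.10 kb before the start, had pileups of 21, 28 and 28 in day 1 libraries and 56, 29 and 24 in day 0 libraries. It ranked at 62.5, 68.4 and 92.3 at day 1 and at 71.8, 41.5 and 48.8 at day 0, where day 0 replicate 1 lies above a pair of the day 1 libraries (exact p = 0.30), and without it every day 1 rank is higher.

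Klf15, which promotes late differentiation and Slc2a4, had regions in the equal list of every day 1 library and of no day 0 library, where the list of day 1 replicate 3 holds all of its peaks. Klf15 (chr6:90461043-90491803) had 4, 4 and 3 peaks in the deposited day 1 lists, against 5, 5 and 4 in the day 0 lists, which overlap (exact permutation test, p = 0.30) unless day 0 replicate 3 is left out (difference then −1.33). Among the 12556 strongest peaks it had 3, 2 and 3 at day 1, against 0, 0 and 0 at day 0 (exact p = 0.10, adjusted p = 0.757). This count did not overlap between the days in lists of 20069 peaks without day 1 replicate 3, where the difference was 3.67. Those lists hold every peak of day 1 replicate 1, also the weak ones, while the day 0 lists are cut. Leaving out any 1 library from lists of 12556 peaks keeps the other counts as they are, so it could not make the days overlap. In lists of 6278 peaks the difference was 0.333 and the ranges overlapped (exact p = 1.00). No library had a peak within 1 kb of either annotated end of Klf15, and the nearest region was chr6:90463482-90463929. Its summit lies 2.54 kb inside the gene and 1.00 kb downstream of the RefSeq start whose promoter is printed above. It had pileups of 17, 18 and 10 in day 1 libraries and 25, 13 and 13 in day 0 libraries, and stood among the 12556 strongest peaks in 3 of 3 day 1 and 0 of 3 day 0 libraries. In the lists of 20069 peaks without day 1 replicate 3, it was no longer called only at day 1. Among shared regions it ranked at 45.9, 34.5 and 24.9 at day 1, against 15.3, 4.84 and 11.8 at day 0, a difference of 24.5 (exact p = 0.10, adjusted p = 0.343). Its pileup per 1000000 fragments was 3.46, 3.21 and 1.37 in day 1 libraries and 2.27, 1.60 and 1.42 in day 0 libraries, which overlap.

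The other Klf15 regions lay inside and behind the gene. The region chr6:90514877-90515446, 23.4 kb behind it, had pileups of 17, 13 and 8 in day 1 libraries and 10, 8 and 11 in day 0 libraries, although the day 0 libraries held more fragments. It ranked at 45.9, 14.8 and 10.1 at day 1, against 0.400, 0.613 and 6.58 at day 0 (exact p = 0.10, adjusted p = 0.343). Its ranks, like those of the intragenic region, did not overlap when any 1 library was left out, which could change only through the redrawn set of shared regions. Per 1000000 fragments its pileup was 3.46, 2.32 and 1.10 in day 1 libraries and 0.908, 0.984 and 1.20 in day 0 libraries, so on this scale day 1 replicate 3 lies within the day 0 range. The region chr6:90471334-90471722, 10.4 kb into the gene, was 1 of the 2 regions with no day 0 peak, with pileups of 8 and 10 in day 1 replicates 1 and 2 and no peak in replicate 3. Without replicate 3 it is called only at day 1, in the deposited lists and in lists of 20069 peaks. The region chr6:90501457-90501865, 9.91 kb behind the gene, was called in 3 of 3 day 1 libraries with pileups of 10, 9 and 7, and in 2 of 3 day 0 libraries with pileups of 11 and 9. Its part chr6:90501546-90501829 is called only at day 1 in lists of 20069 peaks without day 1 replicate 3. The lists of 20069 peaks keep every peak of day 1 replicate 1. A pair of weaker Klf15 regions was called only at day 0. The region chr6:90466096-90466351 had day 0 pileups of 17, 14 and 7, and chr6:90495547-90495925 had 13, 12 and 10. At the fragment totals of the day 1 libraries the mean day 0 pileup of these regions corresponds to 6.15 to 9.81 fragments, against the lowest called day 1 pileups of 4 to 5. The part of depth in their absence at day 1 was not tested.

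**Figure D3:**
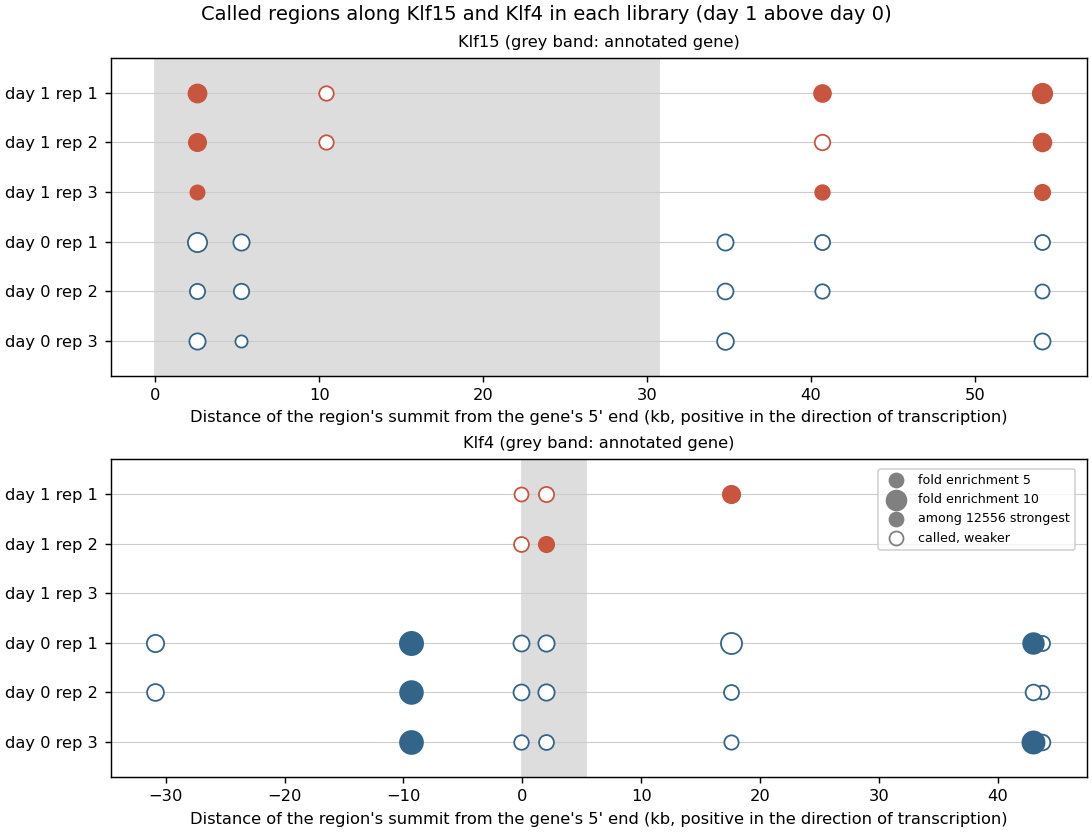
Called regions along Klf15 (top) and Klf4 (bottom) in each library, with the 3 day 1 libraries above the 3 day 0 libraries; the x axis is the distance of the summit from the gene's 5′ end in kb, the area of a circle is the authors' fold enrichment, and filled circles are among the 12556 strongest peaks of the library. Filled circles of Klf15 are found at day 1 only, and the filled circle 9.40 kb before Klf4 at day 0 only.

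Across the 12 regions of these genes that were called in all 6 libraries, 4 ranked higher in every day 1 library (33.3%, against 14.7% of the 9136 shared regions) and 1 ranked lower (8.33%, against 14.4%). The 4 are the taken start of Klf5, the start of Klf6 and both shared regions of Klf15, and the region behind Klf3 is the lower one. These 5 calls were the same when any 1 library was left out. Ranges that are apart stay apart when a library is dropped, save where the set of shared regions is redrawn, so this adds little. By pileup per 1000000 fragments the days overlap at each of the 4, while the region behind Klf3, with 4.07, 4.10 and 1.64 at day 1 and 7.45, 7.63 and 4.26 at day 0, is lower in every day 1 library. The median difference in rank over the 12 was 7.31 percentile points, day 1 minus day 0, against 0.763 over all shared regions. Of the 6 shared regions at gene ends, 2 were higher and 0 lower, against 13.0% and 8.08% of shared gene-end regions in all. Of the 6 away from gene ends, 2 were higher and 1 was lower, against 17.5% and 24.5%.

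**Figure D4:**
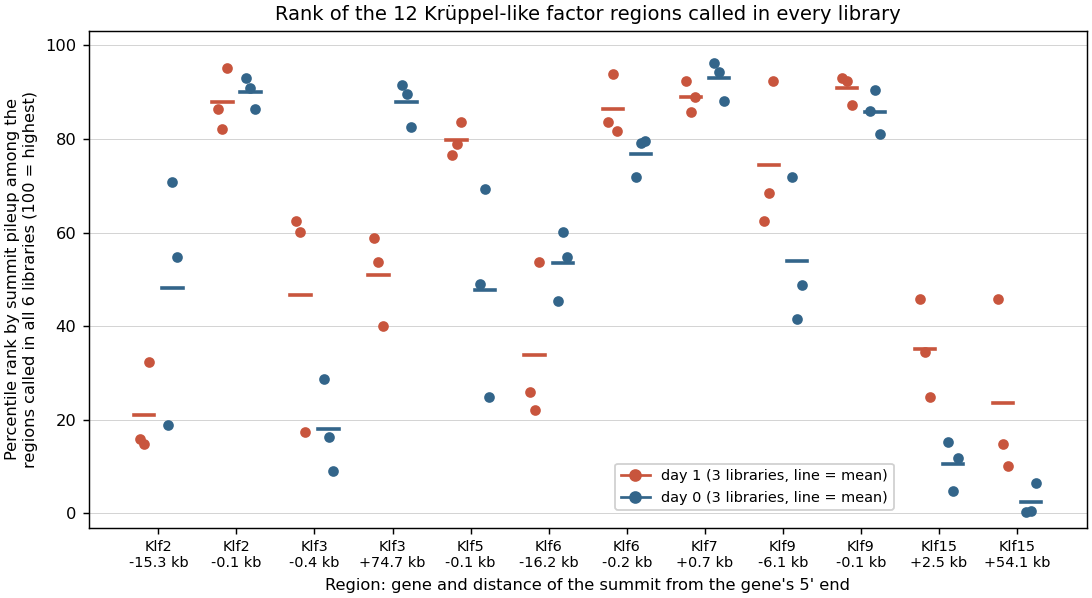
Percentile rank by summit pileup of the 12 regions of these genes among the 9136 regions called in all 6 libraries, with day 1 (red) left of day 0 (blue), a point for each library and a line at the mean of 3. Day 1 points lie above all day 0 points at the starts of Klf5 and Klf6 and at both Klf15 regions, and below them at the region 74.7 kb from the Klf3 start.

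The farthest of the 54 regions lay 67.2 kb from its gene end, and the nearest region left out lay 104 kb from Klf7, with 5 fragments over the summit in day 1 replicate 1 and none called in the other day 1 libraries, against 33, 30 and 23 in day 0 libraries. Beyond the limit, 132 peaks had one of the 8 as nearest coding gene, and these were 75 for Klf6, 36 for Klf4, 14 for Klf7, 7 for Klf5 and 0 for the others. The 36 distant Klf4 peaks were 2, 5 and 2 in day 1 libraries and 9, 9 and 9 in day 0 libraries, up to 582 kb away.

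Other genes of the family and genes that these factors act on were counted for comparison. Of all coding genes with a peak, 33.6% had fewer deposited peaks in every day 1 library and 0.177% had more. In the equal lists 6.67% had fewer and 6.53% had more. The counts of both lists below are to be read beside these shares. Of 18 other KLF and SP genes, 6 had fewer deposited peaks in every day 1 library, 0 had more, 10 overlapped and 2 had no peak. By equal lists 1 of them, Klf13, had more, with 4, 4 and 4 peaks in day 1 libraries and 2, 2 and 1 in day 0 libraries, 0 had fewer, 10 overlapped and 7 had no peak. Sp1 had a region called only in the day 1 equal lists and Sp8 a region called only in the day 0 equal lists. Of 12 partner and target genes, 4 had fewer deposited peaks in every day 1 library, 0 had more, 5 overlapped, and Egr2, Dlk1 and Slc2a4 had no peak in any library. Pparg, the target of Klf2, Klf5 and Klf9, had 4, 3 and 3 deposited peaks in day 1 libraries, against 12, 8 and 7 in day 0 libraries, with 1 region called only in the day 1 and 2 only in the day 0 equal lists. Cebpd, which encodes a C/EBP protein of early differentiation, had 2, 1 and 2 peaks in the day 1 equal lists and 3, 3 and 3 in the day 0 equal lists, and Srebf1, a regulator of lipid synthesis, had 1 region called only in the day 0 equal lists. Among 1168 coding genes with at least 30 peaks in all, those whose peaks were divided over the 6 deposited lists most like the summed peaks of the 8 genes included Atf7ip, Pde1a, Klf10 and Jun. The Euclidean distance between the shares of these genes and those of the 8 genes was 0.0180 to 0.0265, and all such shares follow the number of peaks in the libraries. Klf10 had 7, 6 and 4 peaks in day 1 libraries and 13, 10 and 11 in day 0 libraries, and Jun had 4, 4 and 3 in day 1 libraries and 9, 6 and 8 in day 0 libraries.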

How the data were processed

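The authors deposited a MACS2 2.2.7.1 peak list for each library, called without pooling, in paired-end mode, with no control, a q cutoff of 0.05 and a local background of 10000 bp, per the file headers. The submitters' processing notes name mm10 and, with no role for each, HOMER 4.11, DiffBind 3.8.4, deepTools 3.5.1, SAMtools 1.15.1, Bowtie2 2.4.4 and Trim Galore 0.6.7. Per the file headers, the deposited pileup is a coverage signal, a whole number of fragments over the summit that is not scaled to depth, so it counts whole fragments and not transposase cut sites. The deposited fold enrichment is a ratio to the library's own local background. The deposited −log10 p-values and −log10 q-values are against that background too.

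Peaks off chromosomes 1 to 19, X and Y (7 to 19 per list) were left out. Peaks were given to genes with RefSeq GRCm38.p6 spans, the same chromosome coordinates as mm10. A gene end is 1 kb either side of a span's start or end. Days were compared by the exact two-sided permutation test with Benjamini-Hochberg adjustment over all genes or all shared regions (Python 3.11.15, numpy 2.4.6, pandas 2.3.3, scipy 1.17.1). The merging of peaks, the calls of regions on 1 day only and the permutation test were tested on simulated data. The simulated lists did not differ in depth between the days. The equal lists and the ranks were not tested in this way. No read counts per region were used, so a region without a peak has no value and is not 0. The alternatives were a q filter, other list lengths and orders, other distances and overlaps, and leaving out libraries. The regions named are those at gene ends, those called on 1 day only in the equal lists and the strongest of each gene; weaker regions called only at day 0 were added after their values were seen. The genes and the gene lists were chosen with earlier results of these data known.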

Additional observations from a re-analysis of the deposited data

How the results depend on the processing

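Of 299 alternative values, 123 concerned the counts over all 8 genes or all coding genes, of which 100 stayed as reported, 21 moved and 2 reversed, and 176 concerned single genes, of which 159 stayed, 13 became weaker and 4 reversed. The cause was not tested. Differences are day 1 minus day 0. The equal-list difference for the 8 genes, 2.67 peaks, was 1.33 with peaks ordered by fold enrichment, −1.33 in lists of 6278 peaks and 4.0 with a limit of 50 kb. In lists of 6278 peaks, 0 regions were called only at day 1 and 1 only at day 0, 401 coding genes had more and 532 fewer peaks in every day 1 library (against 788 and 805), and Klf2 reversed to −0.333. With the limit of 50 kb, 1 equal-list region was called only at day 0 and Klf7 reversed to 0.333. With only peaks inside a gene or within 1 kb of it, the deposited difference was −8.67 (against −24.3), 2 regions were called only at day 0 in the deposited and 0 in the equal lists, and Klf4 reversed to 0.333. The difference in genes with a gene-end peak, −0.333, was −1.0 at a −log10 q of at least 5 and reversed to 1.00 in the equal lists.

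Leaving out each library in turn gave deposited differences of −27.5 to −21 and equal-list differences of 2 to 3.50. The coding genes with more deposited peaks in every day 1 library numbered 38 to 144 (against 28), and those with fewer 5428 to 6870. Of the equal-list counts, 983 to 1161 had more and 987 to 1046 fewer. Regions called only at day 1 numbered 0 to 1 in the deposited and 3 to 4 in the equal lists, and those called only at day 0 numbered 9 to 13 and 2 to 3. Shared regions that ranked higher numbered 4 to 6 and those that ranked lower 1 to 4, the highest without day 1 replicate 3. The difference in genes with a gene-end peak was −0.500 to 0. Without day 1 replicate 3 and with lists of 20069 peaks, Klf4 reversed to 0.167. The deviations of same-numbered libraries of the days had correlations of −0.0339, 0.0374 and −0.0772, and those of differently numbered libraries −0.0820 to 0.1261. With 3 libraries per day, these values cannot settle whether the numbers pair the libraries. With a replicate block the differences were −24.3, 2.67 and −0.333 as before, and 3 shared regions ranked lower (against 1) and 6 higher; the smallest p that the block allows is 0.25.

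The depth of the day 1 libraries limits what can be said of weak regions, whose day 0 pileups correspond to few fragments at day 1. Peak lists hold no value for a region that was not called.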
